A study of Mus musculus with 3 samples.

Results

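A set of 10 genes of a transcription factor network that blood and endothelial cells share were described here in endothelial cells of the adult mouse kidney medulla: the GATA factors Gata2, Gata3, Gata4 and Gata6, the helix-loop-helix factors Tal1 and Lyl1, the bridging proteins Lmo2 and Ldb1, the homeobox factor Hhex and the MADS-box factor Mef2c. They were listed by name, and each was read from the probe set that names that gene and no other. All 10 had exactly 1 such probe set, out of 19938 genes measured this way. Renal medullary vessels came from adult (Theiler stage 28) male FVB/N mice carrying Tg(TIE2GFP)287Sato, a transgene in which the Tie2 (Tek) promoter drives green fluorescent protein. Green cells were sorted by FACS after collagenase A treatment, each of the 3 samples being a pool of 2 kidneys, and RNA was amplified in 1 round before hybridisation to Affymetrix Mouse Gene 1.0 ST arrays. All 3 arrays form 1 group with no treatment and no control group, so that a level could be set against a limit but not against other cells. Sorting rests on the transgene, and Tie2 promoter activity is also known in some blood cells. The p-values rest on these 3 pools only, through the spread between them and a variance that the linear models (limma) share among genes. For Gata2, Gata3, Tal1 and Lyl1, with the same value on every array, they measure no spread.

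GATA factors are zinc finger proteins that bind the word GATA in DNA. TAL1 and LYL1 are closely related proteins that bind an E-box together with an E protein partner, and LMO2, which does not bind DNA itself, joins them to GATA factors while LDB1 dimerises and brings distant complexes together. The assembly is best known from blood stem cells and red cell precursors, and GATA2, TAL1 and LMO2 also act in endothelium. HHEX is an early endothelial and blood homeobox protein, and MEF2C is a factor of vessel, heart and muscle development.

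Of the 10 genes, 9 lay above the background limit of the arrays and 1, Gata3, lay below it. Each level was set against 2 limits. The first was 100 units (log2 6.64), the level that the filter of the study asked for, although no source used here says whether the deposited values share the scale of that filter. The other was the 95th percentile of 1245 probe sets for olfactory, vomeronasal and bitter taste receptors, which lay at log2 7.95 (247 units) and is called the background limit here. By limma with Benjamini-Hochberg adjustment over all genes, all 10 members were above 100 units, as were 84.5% of all genes, while 13.7% of all genes were below it. Above the background limit limma called 9 members, against 52.4% of all genes, and Gata3 was called below it with 41.5% of all genes. Probes differ in affinity, so the members were not ranked against each other. When replicate 3 was left out 5 members passed the background limit, since Gata4, Gata6, Ldb1 and Hhex then had adjusted p-values of 0.07, 0.0794, 0.0535 and 0.0756 by limma on the 2 remaining arrays. Without replicate 1 the count was 7 and without replicate 2 it was 8. Each count includes Gata2, Tal1 and Lyl1, which had the same value on every array, so leaving out an array could not move their level. Without replicate 3 the other members that passed were Lmo2 and Mef2c (adjusted p = 0.0137 and 0.0195, limma). Over all genes the share above the limit was 42.8% without replicate 3, 43.8% without replicate 1 and 42.6% without replicate 2, so that 5 of 10 is near the share of all genes.

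**Figure D1:**
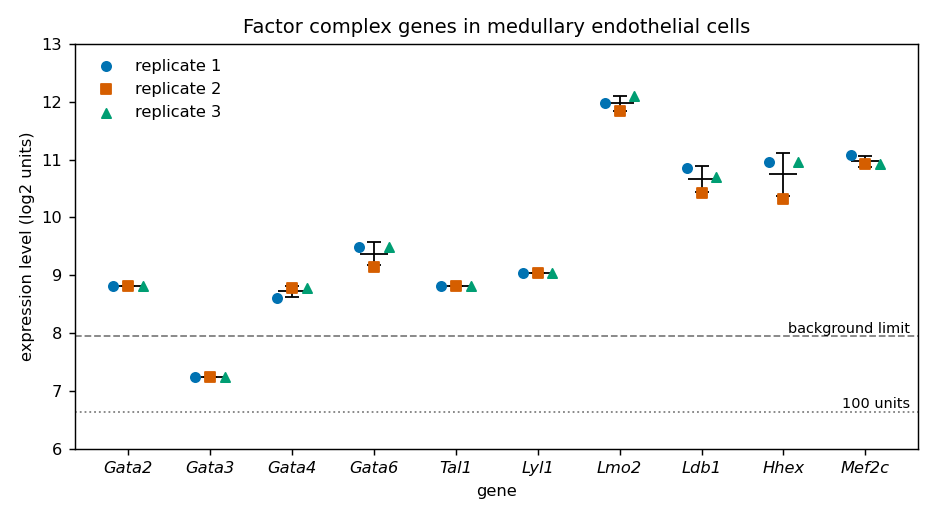
Expression level (y axis, log2 units) of the 10 genes (x axis), each array drawn as a point, and bars giving the mean with its SD (n = 3); the dotted line marks 100 units (6.64) and the dashed line the background limit (7.95). Gata3 lies between the lines and the other 9 genes lie above both, and Gata2, Gata3, Tal1 and Lyl1 have the same value on every array.

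Both bridging protein genes were called above the background limit. Lmo2, the LIM-only adaptor of the complex, stood at log2 11.98, 11.84 and 12.09 in replicates 1, 2 and 3 (4050, 3664 and 4369 units). Its mean of 11.97 ± 0.13 (SD, n = 3) was 4.02 above the background limit on the log2 scale, a 16.3-fold distance (adjusted p = 0.000208, limma). Ldb1, which lets such complexes dimerise, stood at 10.86, 10.42 and 10.71 (1858, 1368 and 1671 units), with a mean of 10.66 ± 0.22. It lay 2.71 above the background limit (adjusted p = 0.00147, limma). Both genes had their lowest value in replicate 2, and every array of both was over 5 times the background limit in units.

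The helix-loop-helix factor genes were both called above the background limit. Tal1 read log2 8.81 (448 units) on all 3 arrays, 0.86 above the background limit (adjusted p = 1.9e-10, limma). Lyl1, its relative that can stand in for it in blood stem cells, read 9.03 (524 units) on all 3, 1.09 above it (adjusted p = 1.39e-10, limma). Neither gene showed any spread between arrays, so no error was measured for them, and the small p-values come from the variance that limma shares among genes. With the prior variance taken only from genes with 3 different values, the adjusted p-values became 0.000321 for Tal1 and 0.000163 for Lyl1, and under that prior the same 9 members and 49.7% of all genes were called above the background limit. In these units Tal1 was 1.82 times and Lyl1 2.12 times the limit.

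The RefSeq start regions of Tal1 and Lyl1 are shown because the complex reads GATA words and E-boxes, and that of Hhex because it is the member whose level differed most between arrays. Capitals mark a GATA word (AGATAA or AGATAG or TGATAA or TGATAG, either strand) or an E-box (CANNTG), searched over the 250 bases before each annotated start. All are on the plus strand of GRCm38.p6 and run 5′ to 3′ up to the base before the first base of the gene, at chr4:115056176-115056425 for Tal1, chr8:84701207-84701422 for Lyl1 and chr19:37434591-37434840 for Hhex.
Tal1: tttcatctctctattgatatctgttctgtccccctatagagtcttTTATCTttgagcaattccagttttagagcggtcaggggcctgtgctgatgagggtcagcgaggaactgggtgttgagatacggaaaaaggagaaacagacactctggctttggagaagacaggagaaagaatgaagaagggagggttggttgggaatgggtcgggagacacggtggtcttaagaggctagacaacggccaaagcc
Lyl1: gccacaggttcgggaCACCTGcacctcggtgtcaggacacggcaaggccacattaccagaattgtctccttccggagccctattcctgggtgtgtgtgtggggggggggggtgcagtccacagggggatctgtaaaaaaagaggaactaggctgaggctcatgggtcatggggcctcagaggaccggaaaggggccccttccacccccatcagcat
Hhex: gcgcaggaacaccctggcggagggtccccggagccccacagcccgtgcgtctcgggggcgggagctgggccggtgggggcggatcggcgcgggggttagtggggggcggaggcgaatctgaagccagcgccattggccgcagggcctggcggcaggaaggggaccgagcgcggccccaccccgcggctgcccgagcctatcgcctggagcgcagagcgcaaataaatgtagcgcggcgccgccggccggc

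Tal1 held 1 GATA word, beginning 205 bases before its first start, and no E-box. Lyl1 held 1 E-box, beginning 235 bases before its annotated start (chr8:84701457), and no GATA word, and Hhex held neither. The 216 bases shown for Lyl1 stop ahead of that start, so the last bases searched are not printed. RefSeq start regions were matched for 7 members (Gata2, Gata3, Tal1, Lyl1, Ldb1, Hhex and Mef2c) with 13 starts in all. A GATA word lay before 2 of these starts, 1 of Tal1 and 1 of Ldb1, and before 26.5% of 32851 starts of all genes. An E-box lay before 4 of them, 1 of Lyl1, 1 of Ldb1 and 2 of Mef2c, and before 66.2% of all starts. The composite word of an E-box followed after 9 bases by GATA lay before none of the 13 and before 0.508% of all starts. These counts describe letters in short windows and not binding.

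Among the GATA factors, Gata2, Gata4 and Gata6 lay above the background limit and Gata3 below it. Gata2, the GATA factor of blood stem cells and endothelium, read log2 8.82 (452.5 units) on all 3 arrays, 0.87 above the background limit (adjusted p = 1.86e-10, limma; 0.000305 with the other prior). Gata6, a factor of heart, smooth muscle and endothelium, stood at 9.49, 9.14 and 9.50 (718, 565 and 722 units), with a mean of 9.38 ± 0.20 (SD, n = 3), 1.43 above the limit (adjusted p = 0.00442, limma). Replicate 2 held its low value. Gata4, known from the heart and from liver sinusoidal endothelium, stood at 8.61, 8.78 and 8.77 (392, 439 and 438 units), with a mean of 8.72 ± 0.09, 0.78 above the limit (adjusted p = 0.00322, limma). Here replicate 1 was the low one and replicates 2 and 3 were alike. Gata3, a factor of T lymphocytes and of the collecting duct, read 7.25 (152 units) on every array. It was 0.60 above 100 units and 0.70 under the background limit (adjusted p = 2.59e-10 for the latter, limma; 0.000599 with the other prior), which does not show it to be silent.

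Hhex and Mef2c were both called above the background limit. Hhex, the homeobox gene, stood at log2 10.96, 10.32 and 10.96 (1994, 1276 and 1994 units), so that replicate 2 was apart from the other arrays, which were equal. Its mean was 10.75 ± 0.37 (SD, n = 3), 2.80 above the background limit (adjusted p = 0.00389, limma). Mef2c, which works with class IIa histone deacetylases, stood at 11.08, 10.92 and 10.92 (2169, 1936 and 1936 units), with a mean of 10.97 ± 0.09, 3.03 above the limit (adjusted p = 0.000202, limma). Replicate 1 was its high array.

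Members differed between arrays by 0 to 0.64 on the log2 scale, with a median SD of 0.09 against 0.01 over all genes. The median over all genes includes the many with no spread. It was 0.04 over the 63 related genes and 0.16 over the 10 endothelial markers, both described below. Of the 5 members with a single lowest array, 4 had it in replicate 2, namely Gata6, Lmo2, Ldb1 and Hhex, and Gata4 had it in replicate 1. Of the 7612 genes with a single lowest array 30.2% had it in replicate 2, 39.9% in replicate 1 and 29.9% in replicate 3. The same value on all 3 arrays was found for 46.3% of all genes. Replicate 2 minus the mean of the other arrays was -0.64 for Hhex on the log2 scale, and 0.68% of all genes lay as far or farther down there. For Ldb1 it was -0.36 (2.61% of all genes), for Gata6 -0.35 (2.80%) and for Lmo2 -0.20 (6.14%). With 1 array per pool a difference between pools has no test. Of the 10 endothelial markers 5 also had their single lowest value in replicate 2, with a median difference of -0.09, and 8 had their highest in replicate 1. Replicate 2 minus the mean of the other arrays had a median of 0.01 over the 8 collecting duct genes and of 0 over the 10 leukocyte genes, 8 of which had no spread. Replicate 2 was the single highest array of 3 collecting duct genes and 2 leukocyte genes, and the single lowest of 0 genes in either list. Fxyd4 stood at 9.24, 10.32 and 9.16 and Lyz2 at 7.15, 7.63 and 7.28. Elf5 went the other way, at 7.29, 7.02 and 7.02, with replicates 2 and 3 equal. The part of other cells in the member differences was not tested, and fewer cells of a type and less RNA per cell cannot be told apart in pooled RNA.

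**Figure D2:**
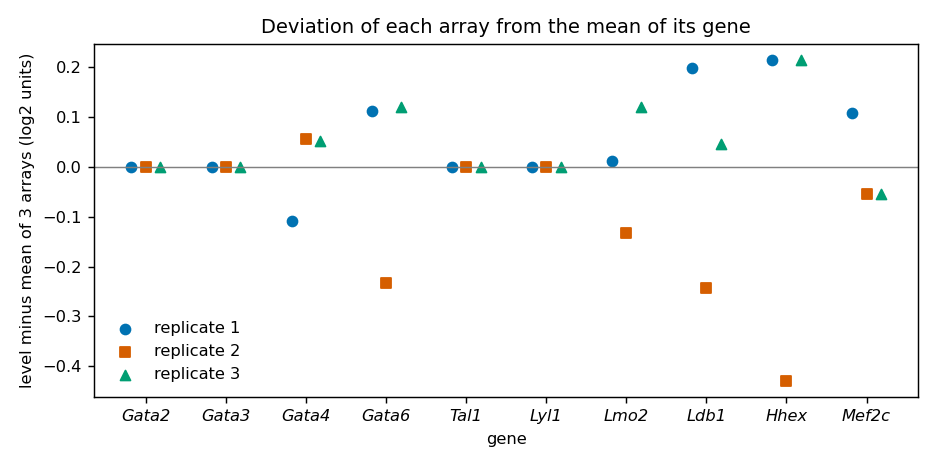
Level on each array minus the mean of the 3 arrays of that gene (y axis, log2 units) for the 10 genes (x axis), with 1 point per array. Replicate 2 is the lowest point of Gata6, Lmo2, Ldb1 and Hhex, replicate 1 is the lowest of Gata4 and the highest of Mef2c, and 4 genes lie at 0 on every array.

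Over 7 lists of partners, inhibitors, relatives and endothelial targets of these factors, 63 of 64 genes had a probe set, and limma called 53 of the 63 above the background limit, against the 52.4% of all genes given above, and 9 below it. Of the 53, 15 were the endothelial targets. The 63 genes together had a median level of log2 9.26, against 8.15 for all genes. The count of each list below stands against the same 52.4%. The E proteins, with which TAL1 and LYL1 pair, were all above it. Tcf4 stood at 12.46, 12.24 and 12.23 (12.31 ± 0.13, SD, n = 3), Tcf12 at 9.95 ± 0.11 and Tcf3 at 9.18 ± 0.01. The ID proteins, which bind E proteins and keep them from DNA, were above it as well, with Id1 at 9.54 ± 0.26, Id2 at 10.32 ± 0.39, Id3 at 10.77 ± 0.31 and Id4 at 8.35 on every array. Of the TAL relatives, Tal2 was above it with a wide spread (8.59, 9.43 and 9.19), while the neuronal factors Nhlh1 (6.95) and Nhlh2 (7.09) were below it. In all, 8 of these 10 genes were called above the background limit and 2 below.

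Among LIM proteins and adaptors, 6 of 8 were called above the background limit. Ldb2, the relative of Ldb1, stood at log2 12.88, 12.74 and 13.05 (12.89 ± 0.16, SD, n = 3), also lowest in replicate 2. Rlim, a ubiquitin ligase that acts on LIM cofactors, was at 11.17 ± 0.05 and Lmo4 at 8.74 ± 0.27, whereas Lmo1 (7.06 ± 0.09) and Lmo3 (6.38), relatives of Lmo2, were called below the limit. The single-stranded DNA binding proteins that stabilise LDB1 were above it, Ssbp4 at 8.92 and Ssbp3 at 8.25 on all arrays. Ssbp2 (7.99) was 0.04 above it and was not called with the prior from genes with 3 different values.

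Other GATA family genes and FOG cofactors were divided. Gata1, the red cell and megakaryocyte factor that forms this complex in those cells, read log2 7.92 on every array, 0.02 under the background limit. limma called it below the limit, but not with the prior from genes with 3 different values. Gata5 (8.40) and Trps1 (8.51 ± 0.20, SD, n = 3) were above the limit. Of the FOG proteins, which bind GATA factors, Zfpm1 was above it (8.69 ± 0.03) and Zfpm2 below it (6.61). Counted together, 3 of these 5 genes were called above and 2 below, near the shares of all genes (52.4% and 41.5%).

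Repressor cofactors were mostly above the background limit and RUNX1 was not. Cbfa2t3 (ETO2), a corepressor carried by the TAL1 complex, read log2 9.22 and Gfi1b, a zinc finger repressor, 8.92 on all arrays. The histone demethylase Kdm1a (10.41), its partner Rcor1 (9.18 ± 0.19, SD, n = 3) and the deacetylases Hdac1 (11.42 ± 0.13) and Hdac2 (11.53 ± 0.20) were above it. Runx1, the blood stem cell factor, read 7.25 on every array and Runx1t1 7.43, both called below the limit. Of 12 genes in this list 9 were called above and 2 below, and Cbfa2t2 (8.56, 8.97 and 8.15) was not called (adjusted p = 0.101, limma). With the prior from genes with 3 different values it was called above the limit (adjusted p = 0.0321, limma), which makes 10 of 12. All 3 TLE corepressors, which HHEX recruits, were above it: Tle1 at 8.58, Tle3 at 8.88 ± 0.04 and Tle4 at 9.76 ± 0.04.

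MEF2 relatives and the pathway around them were above the limit in 9 of 10 measured genes. Mef2a stood at log2 11.77, 11.47 and 11.77 (11.67 ± 0.17, SD, n = 3), low in replicate 2, and Mef2d read 9.59 on every array. Class IIa deacetylases hold MEF2 proteins in a repressed state. Hdac7, the endothelial member, stood at 9.61 ± 0.01, Hdac5 at 9.26 and Hdac4 at 8.94, while Hdac9 (7.66 ± 0.08) was called below the limit. The kinases Map2k5 (9.22) and Mapk7 (9.44 ± 0.02), which activate MEF2 under flow, and the flow-induced factors Klf2 (9.36 ± 0.10) and Klf4 (9.15 ± 0.10) were called above it.

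**Figure D3:**
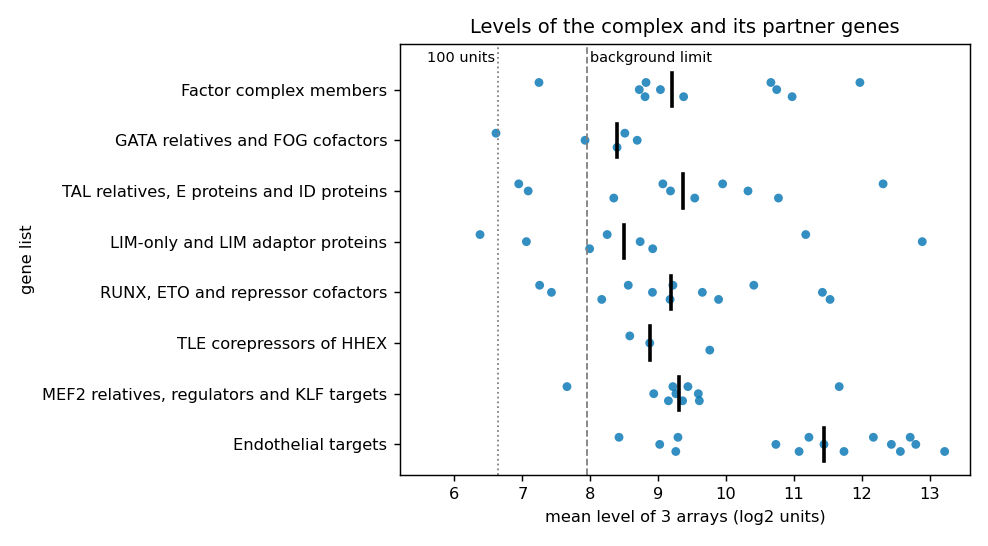
Mean level over 3 arrays (x axis, log2 units) of each gene in the member list and 7 lists of related genes (y axis), with 1 point per gene and a black bar at the list median; the dotted line marks 100 units and the dashed line the background limit. The list of endothelial targets has a median of 11.44 and no gene under the background limit, and the member list has 1.

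A list of endothelial genes taken as targets of these or related factors lay wholly above the background limit. All 15 were called above it, with a median log2 level of 11.44. Cdh5, the junctional cadherin, stood at 12.92, 12.65 and 12.57, and Angpt2, the Tie2 ligand, at 11.04, 10.91 and 11.27. Emcn, an endothelial sialomucin, stood at 13.22 ± 0.02 (SD, n = 3), and the ETS factors Erg and Fli1 at 11.44 ± 0.10 and 11.22 ± 0.04. Nos3, the endothelial nitric oxide synthase, stood at 9.02 on every array and Kit, the stem cell factor receptor, at 8.42 ± 0.01. Vcam1, a leukocyte adhesion receptor, differed most between arrays (10.21, 11.17 and 10.82, SD 0.48) and was highest in replicate 2. Angpt2 was lowest there, as Lmo2 was, while Cdh5 and Kdr (12.40, 12.12 and 11.99) were highest in replicate 1. These are levels in 1 cell population and carry no measure of regulation.

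Lists of cell type markers were read beside the members. Each count stands against the 52.4% of all genes called above the background limit and the 41.5% called below it. The red cell and platelet counts are near these shares. The 10 endothelial markers were all called above the background limit, with a median log2 level of 12.30, and some of them, such as Cdh5 and Kdr, also stand in the list of targets. Beside Tal1, Lyl1 and Gata2, the red cell genes were divided: Klf1 at 7.69 and Slc4a1 at 7.94 were called below it, Rhag was at 5.97, and Alas2 (8.15 ± 0.04, SD, n = 3), Epor (8.30) and Ermap (8.26) were called above it, that is 3 of 6. Slc4a1 was not called with the prior from genes with 3 different values. Of 4 measured megakaryocyte and platelet genes 2 were above it, Itga2b at 8.24 ± 0.01 and Gp9 at 8.23, and Pf4 (6.44 ± 0.10) and Ppbp (7.12 ± 0.28) were below. The mast cell genes Cpa3 (6.16), Mcpt4 (6.06 ± 0.02), Ms4a2 (6.21) and Fcer1a (5.56) were below 100 units, while Tpsb2 (7.98) and Kit, which endothelial cells also express, were called above the background limit, 2 of 6. Tpsb2 was 0.03 above it and was not called with the prior from genes with 3 different values. Of 10 leukocyte genes 9 were called below the background limit, among them Ptprc (6.68) and Spi1 (7.38), and Cd3e (8.52) was above it.

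Beside Gata3, the collecting duct genes Aqp2 (log2 9.67, 9.67 and 9.27) and Aqp3 (8.55 ± 0.01, SD, n = 3) were above the limit, as were 5 of 8 in that list, while Scnn1g (6.43) was below it. That count is near the 52.4% of all genes called above the limit. The smooth muscle and fibroblast counts stand against the same share. Beside Gata6 and Mef2c, the smooth muscle and pericyte genes Acta2 (7.56), Cnn1 (7.65), Pdgfrb (7.56) and Des (7.63) were below the limit, and Notch3 (8.51), which endothelial cells can also express, and Cspg4 (8.02 ± 0.02) were called above it, 2 of 9, of which Cspg4 was not called with the prior from genes with 3 different values. Of 5 fibroblast genes Col1a1 (8.81) and Col3a1 (8.17) were above it. The share of these cells in the members' levels was not tested.

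**Figure D4:**
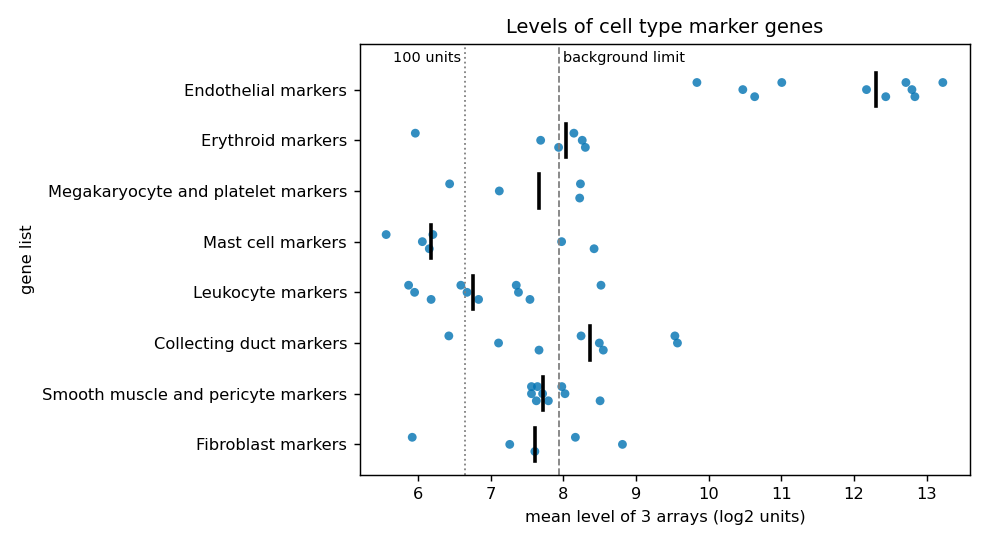
Mean level over 3 arrays (x axis, log2 units) of each marker gene in 8 cell type lists (y axis), with 1 point per gene and a black bar at the list median; the dotted line marks 100 units and the dashed line the background limit. The endothelial list has a median of 12.30 and lies wholly above the limit, whereas the leukocyte list has a median of 6.76.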

How the data were processed

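RNA from FACS-isolated medullary endothelial cells was measured on 3 arrays of 1 group. The authors deposited log2 expression levels per probe set (inferred from the range 3.55 to 14.4), made with Affymetrix Expression Console per the labels. The study names RMA in GeneSpring. Probe-level values were not used here. RMA summarises each probe set over all arrays, but whether it lies behind equal values in the deposited data was not tested. The same value on every array was found for 46.3% of genes, so that no error was measured for them. Median array levels differed by at most 0.03.

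Of 35557 probe sets, 21789 named 1 gene, and 21698 of those matched RefSeq symbols (GRCm38.p6) by Entrez identifier. Each of 19938 genes was represented by its probe set with the highest mean. For each limit, limma tested whether the mean difference of the log2 level from it was 0 (intercept-only model, eBayes, two-sided). P-values were adjusted by Benjamini-Hochberg over the 19938 genes at a threshold of 0.05. The fit was also run on simulated data, with spreads drawn only from genes with 3 different values. That run held no genes without spread, so it does not check the fit for them. Alternatives changed the limits, the probe set rule, the normalization, a filter at 50 units, the eBayes prior and the arrays used. The rule for named genes was every member and any gene of the lists. Members, lists and limits were chosen with earlier results of these data known. Start regions came from RefSeq. Lists carry no test. Mef2b, Gp1bb and Gp6 were not analysed here, since no probe set used named them alone. Python 3.11.15 (numpy 2.4.6, pandas 2.3.3, matplotlib 3.10.9), R 4.3.3 and limma 3.58.1 were used.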

Additional observations from a re-analysis of the deposited data

How the results depend on the processing

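Counts of members above 100 units (9 to 10), of related genes above the background limit (43 to 55 of 63) and of endothelial markers above it (9 to 10) stayed within 1.5 times their main values under every alternative run. The count of members above the background limit was 9 under each alternative that kept all arrays, and 5 to 8 when 1 array was left out, with 5 in the absence of replicate 3, where limma has 1 residual degree of freedom per gene. At a limit of 200 units Gata3 changed side, to -0.40 on the log2 scale. Of 220 comparisons of single members with a limit under an alternative, 212 kept direction and side of the threshold, 7 lost the call and 1 changed direction. The 7 were Gata4, Gata6, Ldb1 and Hhex against the background limit with 1 array left out (adjusted p = 0.0535 to 0.0802 by limma). Part of the 212 could hardly have changed. Each member has 1 probe set, so the other probe set rules used the same member values, and the filter left these values as they were. Gata2, Gata3, Tal1 and Lyl1 had the same value on every array, so leaving out 1 array could not move their level. The number of arrays and the overlap of signal with background limit what can be said of genes near the background limit.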

Other observations

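Equal values on all 3 arrays were found mostly among genes of low level. The share of genes with the same value on every array was 65.0% below log2 7, 45.3% from 8 to 9, 20.8% from 10 to 11 and 8.27% from 12 upward. Gata2, Gata3, Tal1 and Lyl1 were among them. The value of Gata3 was also that of 12 other genes on every array and the value of Tal1 that of 5 others, while those of Gata2 and Lyl1 belonged to no other gene.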
